A study of Mus musculus with 14 samples.

Results

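The 8 genes reported here belong to the insulin-like growth factor (IGF) system and were followed in mouse skin epithelium: the binding proteins Igfbp2, Igfbp3, Igfbp4, Igfbp5, Igfbp6 and Igfbp7, the ligand Igf1 and the receptor Igf1r. They were found by symbol among the 47729 genes of the RNA-seq count tables, and all 8 were among the 21464 genes that passed the filter on low counts. The 8 were named with results of these data known, among them the RNA rise of Igfbp5 in aged epidermal cells. No fuller record of the choice was at hand. The 8 genes are treated as selected on RNA levels of aged against young epidermal cells, and so for that comparison no p-value is given for them and nothing is read from calls. The study sorted cells from the back skin of aged (24-month-old) and young (2-month-old) female mice, whose strain the labels give both as C57B6 and as C57B8. Epidermal stem cells (EpdSC) were sorted as lineage-negative, IntA6Hi cells with CD34- and Sca1+. Stem cells of the hair follicle (HFSC) were sorted with CD34+ and Sca1- from the same gate. RNA-seq had 2 libraries in each of 4 groups (aged EpdSC, aged HFSC, young EpdSC and young HFSC), ATAC-seq, which counts transposase cuts in open chromatin, had 1 library in each of the same groups, and 10x single-cell RNA-seq had 1 library of lineage-negative, IntA6+ epithelium from aged and 1 from young skin. The labels name no transgene and no treatment, and nothing in them ties replicates to different animals. The p-values given here therefore cover the spread between libraries alone, which may be technical.

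IGF1 and IGF2 are secreted growth factors that activate the IGF1 receptor, a receptor tyrosine kinase that signals through the PI3K-AKT-mTOR and MAPK pathways. Binding proteins hold the ligands outside the cell, where they can prolong the life of a ligand, keep it from the receptor or release it when a protease such as PAPPA cuts them. In skin, the ligand IGF1 is known mainly as a product of dermal cells, including those of the dermal papilla, while keratinocytes carry the receptor.

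The RNA libraries held 25126808 to 35905505 counts assigned to genes, and levels are given as CPM, the count of a gene scaled to a common library total with edgeR's TMM factors. Cd34 and Ly6a, which encodes Sca1, followed their gates. In EpdSC against HFSC, Cd34 had a log2 fold change of -11.26 in aged and -10.54 in young cells, and Ly6a had 6.54 and 8.42. Itga6, the gene behind the IntA6Hi gate that both populations share, was higher in EpdSC, with 1.66 in aged and 1.91 in young cells. Counts of these bulk libraries cannot tell fewer cells of a type from less RNA per cell.

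In the sorted populations, 4 binding proteins were far lower in EpdSC than in HFSC in aged and in young skin: Igfbp4, Igfbp5, Igfbp6 and Igfbp7. Igfbp3 was the exception, higher in EpdSC at both ages, and Igf1r differed little. The libraries of the populations did not overlap for 6 of the 8 genes at each age, where 62.6% of all genes in aged and 62.4% in young cells did not. In aged cells 6 of the 8 genes passed edgeR's quasi-likelihood test (adjusted p under 0.05 over all genes), where 24.1% of all genes tested did. In young cells 5 of the 8 passed, where 26.1% of all genes did. The median log2 fold change of the 8 genes in EpdSC against HFSC was -1.96 in aged and -1.33 in young cells, against medians of -0.09 and -0.06 over all genes tested. The comparisons share libraries, and the counts are given as a description, since the 8 genes were named with earlier results in view.

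**Figure D1:**
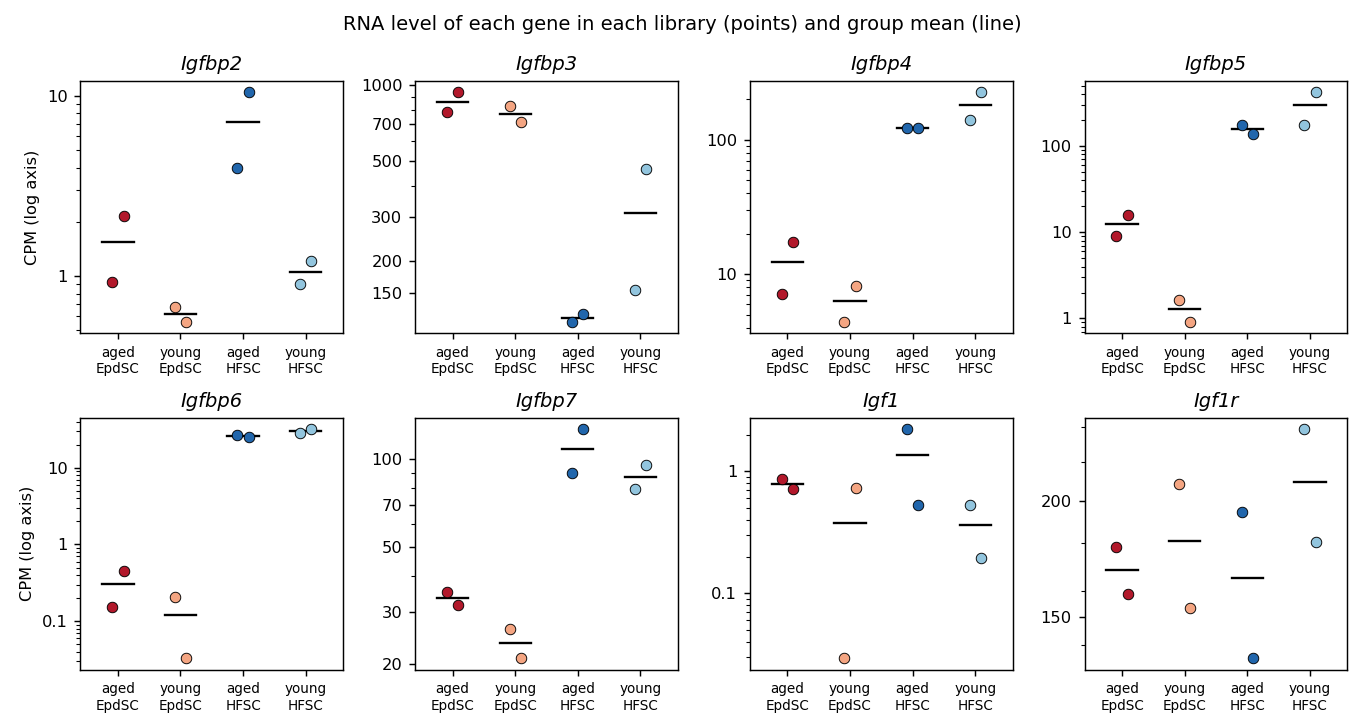
RNA level of each of the 8 genes in each RNA-seq library, as CPM on a log axis, with points for the 2 libraries of a group and a line for the group mean. Igfbp4, Igfbp5 and Igfbp6 sit far lower in EpdSC than in HFSC, Igfbp3 sits higher in EpdSC, and the groups of Igf1r overlap.

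The promoters of the 5 binding protein genes that passed the test between the populations at both ages are shown for reading beside the chromatin counts. They are the 250 bases before the RefSeq start in GRCm38.p6, given 5′ to 3′ on the strand of the gene, with capitals marking matches on either strand to TATAAA (the TATA box), to CCAAT (the CCAAT box) or to GGGCGG (the GC box). Both strands were also searched for the AP-1 motif TGANTCA (in 6.75% of promoters) and for the FOXO motif TGTTTAC (3.17%), neither of which occurred in these windows. Igfbp3 is on chr11:7213924-7214173 (minus strand), Igfbp4 on chr11:99040994-99041243 (plus strand), Igfbp5 on chr1:72874866-72875115 (minus strand), Igfbp6 on chr15:102143936-102144185 (plus strand) and Igfbp7 on chr5:77408046-77408295 (minus strand). The starts used for Igfbp3 (chr11:7213923) and Igfbp4 (chr11:99041244) lie inside the gene spans given below. The windows of these genes therefore lie within those spans and not before them.
Igfbp3: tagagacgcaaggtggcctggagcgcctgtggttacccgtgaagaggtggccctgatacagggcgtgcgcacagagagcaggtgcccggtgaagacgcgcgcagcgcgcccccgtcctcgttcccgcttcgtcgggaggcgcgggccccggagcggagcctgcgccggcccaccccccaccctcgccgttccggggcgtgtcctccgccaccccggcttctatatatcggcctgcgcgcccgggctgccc
Igfbp4: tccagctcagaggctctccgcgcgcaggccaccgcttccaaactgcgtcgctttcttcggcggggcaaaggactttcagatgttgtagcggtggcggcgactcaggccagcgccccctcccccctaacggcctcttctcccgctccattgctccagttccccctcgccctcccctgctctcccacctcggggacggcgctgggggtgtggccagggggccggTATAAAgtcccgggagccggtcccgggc
Igfbp5: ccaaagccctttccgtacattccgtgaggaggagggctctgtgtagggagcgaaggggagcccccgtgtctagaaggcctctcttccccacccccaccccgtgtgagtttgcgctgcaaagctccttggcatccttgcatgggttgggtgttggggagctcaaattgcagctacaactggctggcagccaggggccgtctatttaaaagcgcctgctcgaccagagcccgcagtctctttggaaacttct
Igfbp6: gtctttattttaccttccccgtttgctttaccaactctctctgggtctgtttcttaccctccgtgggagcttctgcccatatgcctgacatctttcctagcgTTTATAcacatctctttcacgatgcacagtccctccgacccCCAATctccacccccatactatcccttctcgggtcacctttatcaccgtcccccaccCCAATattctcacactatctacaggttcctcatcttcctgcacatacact
Igfbp7: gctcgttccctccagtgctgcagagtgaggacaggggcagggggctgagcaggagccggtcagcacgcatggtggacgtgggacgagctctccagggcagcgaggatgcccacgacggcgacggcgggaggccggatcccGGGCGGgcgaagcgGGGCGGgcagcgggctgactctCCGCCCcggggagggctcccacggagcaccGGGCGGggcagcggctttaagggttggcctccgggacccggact

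In these letters, the Igfbp3 window had 73.2% GC and 32 CpG and the Igfbp4 window 69.2% and 22, against medians of 52.4% and 6 over 32851 promoters of the same length. The Igfbp5 window had 58.8% GC and 10 CpG, the Igfbp6 window 49.6% and 7, and the Igfbp7 window 74.0% and 26. TATAAA occurred in 12.4% of promoters, CCAAT in 33.8% and GGGCGG in 32.7%. Igfbp4 held TATAAA from 28 to 23 bases before its start, and Igfbp6 held it on the minus strand from 148 to 143 bases before its start and CCAAT at 2 places. Igfbp7 held GGGCGG at 4 places between 110 and 39 bases before its start. The windows of Igfbp3 and Igfbp5 held none of the 5 motifs. A match is a description of the sequence and not a site of binding.

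Igfbp5, a binding protein found in extracellular matrix as well as in solution, ranged widely over the groups. The gene lies at chr1:72858065-72874865 (minus strand, GRCm38.p6). It had 9.09 and 15.6 CPM in aged EpdSC, against 176 and 136 CPM in aged HFSC. It had 1.65 and 0.921 CPM in young EpdSC, against 173 and 416 CPM in young HFSC. All EpdSC libraries therefore lay below all HFSC libraries, and aged EpdSC lay between young EpdSC and HFSC. The log2 fold change in EpdSC against HFSC was -3.66 ± 0.40 (SE) in aged cells, with an adjusted p of 4.05e-05 by edgeR, and -7.82 ± 0.51 in young cells, with an adjusted p of 5.07e-07 by edgeR. By group mean the order was young HFSC (294 ± 172 CPM, SD, n = 2), aged HFSC (156 ± 28.2), aged EpdSC (12.4 ± 4.62) and young EpdSC (1.28 ± 0.513). The first 2 of these overlapped, since 1 aged HFSC library lay above the lower young one.

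Igfbp6, a binding protein with a strong preference for IGF2 over IGF1, was close to absent from EpdSC. It lies at chr15:102144186-102149512 (plus strand). Its level was 0.155 and 0.456 CPM in aged EpdSC and 26.9 and 25.3 CPM in aged HFSC. In young cells it was 0.206 and 0.0329 CPM in EpdSC and 28.1 and 31.8 CPM in HFSC. The spread within HFSC was small and the gap to EpdSC was wide at both ages, with log2 fold changes of -6.41 ± 0.42 (SE, adjusted p = 6.47e-07 by edgeR) in aged and -7.87 ± 0.47 (adjusted p = 2.79e-07 by edgeR) in young cells. In order of level, young HFSC (29.96 ± 2.64 CPM, SD, n = 2) and aged HFSC (26.1 ± 1.12) came first, and the EpdSC groups, which overlapped each other, came last.

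Igfbp4, which binds both IGFs and is the classic substrate of the protease PAPPA, lies at chr11:99040005-99052655 (plus strand). It had 7.17 and 17.3 CPM in aged EpdSC, against 121 CPM in both aged HFSC libraries. It had 4.44 and 8.19 CPM in young EpdSC, against 140 and 224 CPM in young HFSC. Every HFSC library was above every EpdSC library. The log2 fold change was -3.31 ± 0.39 (SE) in aged cells (adjusted p = 6.95e-05 by edgeR) and -4.85 ± 0.42 in young cells (adjusted p = 5.45e-06 by edgeR).

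Igfbp7, a relative that binds IGFs weakly and also binds insulin, lies at chr5:77349240-77408045 (minus strand) and showed the same direction on a smaller scale. It had 35.1 and 31.9 CPM in aged EpdSC and 89.5 and 127 CPM in aged HFSC. It had 26.3 and 20.9 CPM in young EpdSC and 79.0 and 95.4 CPM in young HFSC. The populations did not overlap at either age, with log2 fold changes of -1.69 ± 0.20 (SE, adjusted p = 6.21e-05 by edgeR) in aged and -1.88 ± 0.20 (adjusted p = 2.53e-05 by edgeR) in young cells. Its order was aged HFSC (108 ± 26.2 CPM, SD, n = 2), young HFSC (87.2 ± 11.6), aged EpdSC (33.5 ± 2.27) and young EpdSC (23.6 ± 3.80), in which the pair of HFSC groups overlapped and the pair of EpdSC groups did not.

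Igfbp3, the main carrier of IGFs in blood and a known product of basal keratinocytes, ran the other way. It lies at chr11:7206086-7215498 (minus strand). It had 784 and 937 CPM in aged EpdSC, against 115 and 123 CPM in aged HFSC, and 826 and 715 CPM in young EpdSC, against 154 and 467 CPM in young HFSC. All 4 EpdSC libraries were above all 4 HFSC libraries, and the pair of young HFSC libraries stood far apart. The log2 fold change was 2.85 ± 0.39 (SE) in aged cells (adjusted p = 0.000193 by edgeR) and 1.31 ± 0.37 in young cells (adjusted p = 0.0199 by edgeR). The young value depended on single libraries: it was 0.75 when young HFSC replicate 1 was left out and 2.32 when replicate 2 was. The young call was lost without young EpdSC replicate 1 (adjusted p = 0.0555 by edgeR) and in a fit of the 4 young libraries alone (adjusted p = 0.0668 by edgeR).

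Igfbp2, a binding protein often found in fetal and glandular tissue, lies at chr1:72824480-72852474 (plus strand) and was low in all sorted libraries. It had 0.927 and 2.15 CPM in aged EpdSC, against 3.96 and 10.4 CPM in aged HFSC, and 0.677 and 0.559 CPM in young EpdSC, against 0.899 and 1.22 CPM in young HFSC. The log2 fold change was -2.23 ± 0.54 (SE) in aged cells (adjusted p = 0.0105 by edgeR) and -0.77 ± 0.59 in young cells (adjusted p = 0.400 by edgeR). The aged call was lost without aged HFSC replicate 2, which held the 10.4 CPM (-1.30, adjusted p = 0.200 by edgeR), and without aged EpdSC replicate 1 (-1.72, adjusted p = 0.0970 by edgeR).

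Igf1r, the receptor, lies at chr7:67952257-68233668 (plus strand) and was measured at like levels in both populations. It had 178 and 159 CPM in aged EpdSC and 195 and 135 CPM in aged HFSC, and 209 and 153 CPM in young EpdSC and 239 and 181 CPM in young HFSC. The groups overlapped at each age. The log2 fold change in EpdSC against HFSC was 0.03 ± 0.21 (SE, adjusted p = 0.942 by edgeR) in aged and -0.21 ± 0.21 (adjusted p = 0.536 by edgeR) in young cells, and its sign turned under some settings. Igf1, the ligand, lies at chr10:87858265-87937047 (plus strand). It had 0.866 and 0.716 CPM in aged EpdSC and 2.21 and 0.527 CPM in aged HFSC. In young cells it had 0.0294 and 0.724 CPM in EpdSC and 0.533 and 0.197 CPM in HFSC. At these counts the groups overlapped and the standard errors of its log2 fold changes, 1.05 in aged and 1.15 in young cells, were larger than the fold changes of -0.79 and 0.01.

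Summed levels of markers of other cells differed between the populations, and their part in these results was not tested. Summed over the list, melanocyte markers had 16.01 to 20.1 CPM in aged EpdSC and 190 to 203 CPM in aged HFSC, and 12.3 to 17.8 CPM in young EpdSC and 213 to 260 CPM in young HFSC. All 8 melanocyte markers were lower in EpdSC, and 4 in aged and 5 in young cells passed the edgeR test, with Dct at 0.742 and 1.04 CPM in aged EpdSC and 16.9 and 17.1 CPM in aged HFSC, and Mlana at or below 0.72 CPM in every library. Fibroblast markers summed to 51.8 to 60.9 CPM in aged EpdSC and 547 to 554 CPM in aged HFSC, and to 23.8 to 34.5 CPM in young EpdSC and 595 to 754 CPM in young HFSC. Of 7 fibroblast markers tested 3 passed as lower in EpdSC at each age, while Pdgfra, Dcn and Lum were at or below 2.18 CPM in every library. Pericyte and smooth muscle markers summed to 94.96 to 122 CPM in aged EpdSC and 648 to 659 CPM in aged HFSC, and to 92.4 to 108 CPM in young EpdSC and 740.3 to 778 CPM in young HFSC. Of these 7 markers 1 passed as lower in EpdSC at each age, and 1 passed as higher in young EpdSC. In young cells 4 of the 7 were higher in EpdSC, and in aged cells 1 was. Their median log2 fold change was -0.87 in aged and 0.17 in young cells. The sum of Schwann cell markers was higher in EpdSC, with 199 to 211 CPM in aged EpdSC and 35.1 to 36.4 CPM in aged HFSC. In young cells it was 178 to 182 CPM in EpdSC and 33.9 to 45.01 CPM in HFSC. Most of that list did not follow its sum, since only 2 of its 6 markers were higher in EpdSC at each age. The median log2 fold change of the 6 was -1.47 in aged and -1.35 in young cells.

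With age, none of the 8 genes passed the test in HFSC, where 0.368% of all genes tested did. By unadjusted p under 0.05, 3 of the 8 passed (7.68% of all genes did), and DESeq2 called 1 of the 8. Igfbp2 came nearest. Its 3.96 and 10.4 CPM in aged HFSC lay above the 0.899 and 1.22 CPM in young HFSC, a log2 fold change of 2.76 ± 0.56 (SE) with an adjusted p of 0.0750 by edgeR. Its adjusted p ran from 1.27e-05 to 0.743 over 15 other settings, and DESeq2's was 0.000517. It was 0.743 without aged HFSC replicate 2, with a log2 fold change of 1.90, and 0.0165 without aged HFSC replicate 1, with 3.29.

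Markers of sebaceous cells were higher in the same aged HFSC libraries, and their part in the Igfbp2 value was not tested. All 9 sebaceous markers tested had positive log2 fold changes in aged against young HFSC, 1 of them passed the edgeR test, and their median was 1.11. Their summed level was 505 to 632 CPM in aged HFSC and 238 to 295 CPM in young HFSC. Among the defining markers, Cidea had 4.26 and 5.10 CPM in aged HFSC and 0.53 and 0.39 CPM in young HFSC, and Awat2 had 2.55 and 2.80 CPM in aged HFSC and 1.13 and 2.16 CPM in young HFSC. None of the listed sebaceous markers was at 0 in an HFSC library. The rise was not particular to sebaceous markers. In aged HFSC 6 of 8 suprabasal markers were higher (median log2 fold change 1.52), as were 7 of 8 interfollicular basal markers (0.76). So were 6 of 7 Langerhans and myeloid markers (1.11) and 6 of 8 melanocyte markers (0.80). Medians below 0 were found for bulge (-0.15), inner bulge (-0.49), proliferating (-0.11) and Schwann cell markers (-0.25).

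Igfbp3 and Igfbp5 had negative fold changes with age in HFSC that rested on 1 young library. Igfbp3 had 115 and 123 CPM in aged HFSC against 154 and 467 CPM in young HFSC, a log2 fold change of -1.38 ± 0.37 (SE, adjusted p = 0.187 by edgeR). It was -0.39 when young HFSC replicate 2 was left out and -1.99 when replicate 1 was, where the adjusted p by edgeR was 0.000374. Igfbp5 had a log2 fold change of -0.92 ± 0.36 (adjusted p = 0.516 by edgeR), which was -0.17 when young HFSC replicate 2 was left out and -1.44 when replicate 1 was (adjusted p = 0.0462 by edgeR). The remaining genes had log2 fold changes of -0.59 ± 0.35 for Igfbp4, -0.20 ± 0.29 for Igfbp6, 0.31 ± 0.19 for Igfbp7, 1.88 ± 1.11 for Igf1 and -0.35 ± 0.21 for Igf1r, and none passed. For 4 of the 8 genes (Igfbp2, Igfbp3, Igfbp4 and Igfbp6) the aged and young HFSC libraries did not overlap, where 35.4% of all genes did not.

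In EpdSC, Igfbp5 was the gene with the largest difference by age among the 8. As given above, both aged EpdSC libraries (9.09 and 15.6 CPM) lay above both young ones (1.65 and 0.921 CPM), a log2 fold change of 3.25 ± 0.46 (SE) or 9.50-fold. It was the 1 of the 8 that passed the edgeR threshold, which 0.0839% of all genes did, a count from which nothing is read since this difference was known when the genes were named. Igfbp5 was not past the threshold without aged EpdSC replicate 2 (log2 fold change 2.80), without young EpdSC replicate 2 (2.92), with a filter of 1 CPM, with library size alone or in a fit of the 4 EpdSC libraries.

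The other binding proteins had smaller positive differences in aged EpdSC. The log2 fold change was 1.31 ± 0.57 (SE) for Igfbp2, 0.95 ± 0.39 for Igfbp4, 1.26 ± 0.67 for Igfbp6, 0.50 ± 0.20 for Igfbp7 and 0.16 ± 0.36 for Igfbp3. For Igf1 it was 1.08 ± 1.10 and for Igf1r -0.10 ± 0.21. The Igfbp6 value rested on 5 and 14 counts in aged and 7 and 1 counts in young EpdSC. With a library left out it ran from 0.30 to 3.03, and the Igfbp4 value ran from 0.17 to 1.48. The aged and young EpdSC libraries did not overlap for 3 of the 8 genes, Igfbp2, Igfbp5 and Igfbp7, where 32.2% of all genes did not. Fibroblast markers moved the same way, with summed levels of 51.8 to 60.9 CPM in aged EpdSC and 23.8 to 34.5 CPM in young EpdSC and 6 of 7 tested markers higher, and their part in these values was not tested. The sums of sebaceous markers overlapped, at 416 to 645 CPM in aged EpdSC and 462 to 662 CPM in young EpdSC, with 7 of 9 markers higher. Fibroblast markers were not alone in rising. In aged EpdSC 8 of 8 suprabasal markers were higher, with sums of 3427 to 3786 CPM against 2356 to 2478 CPM in young EpdSC. So were 7 of 8 upper hair follicle and 7 of 8 melanocyte markers. Medians below 0 included those of Langerhans and myeloid (-0.84), dermal papilla (-0.45) and endothelial markers (-0.31).

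The age effect in EpdSC minus the age effect in HFSC was 4.17 ± 0.59 (log2, SE) for Igfbp5, 1.54 ± 0.51 for Igfbp3, 1.54 ± 0.52 for Igfbp4, 1.46 ± 0.73 for Igfbp6 and -1.46 ± 0.79 for Igfbp2. None of the 8 passed edgeR's threshold for this difference, which 0.00466% of all genes passed, and 3 had an unadjusted p under 0.05, as 4.57% of all genes did. DESeq2 called 1, Igfbp5, and the Igfbp5 value ran from 3.43 to 4.69 over the 8 fits that left out 1 library. The Igfbp3 value was 0.55 when young HFSC replicate 2 was left out and 2.15 when replicate 1 was. These values contain the aged and young EpdSC libraries, on which the genes are treated as selected. They are a description, and nothing is read from these calls.

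**Figure D2:**
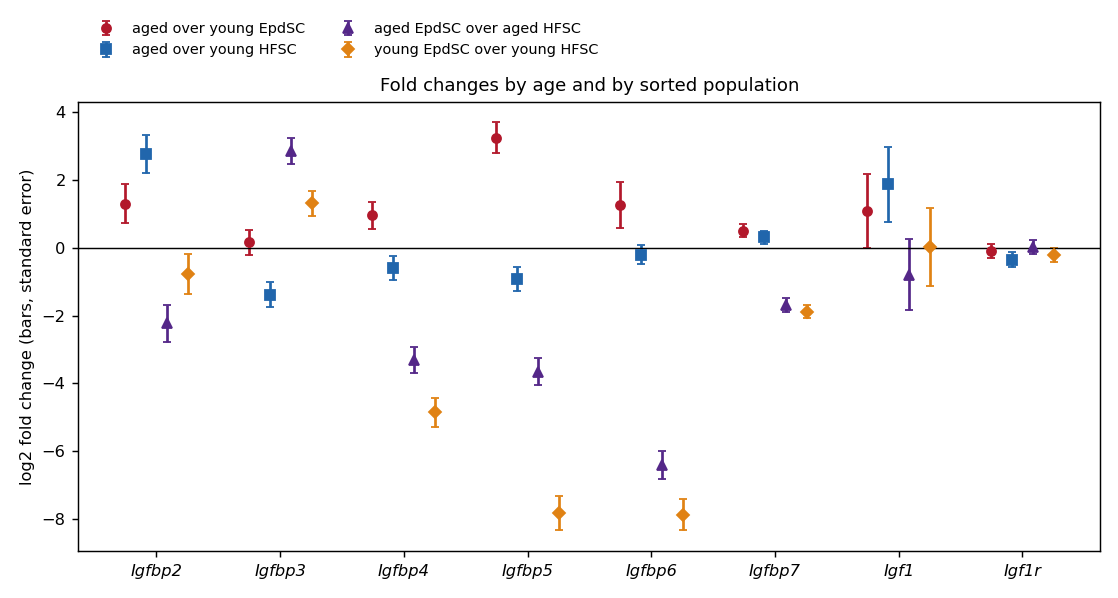
RNA log2 fold change of each gene in 4 comparisons, with bars for the standard error: aged against young in EpdSC and in HFSC, and EpdSC against HFSC in aged and in young cells. The population differences of Igfbp4, Igfbp5 and Igfbp6 reach past -3, Igfbp3 lies above 0 in both population comparisons, and Igf1r lies near 0 throughout.

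The single-cell libraries placed the same genes among cell classes. After filtering, 4469 aged and 4038 young cells remained, with medians of 2271 and 3923 unique molecular identifiers (UMIs) per cell, and 33 cell barcodes occurred in both libraries. Clusters were formed without the IGF pathway genes and named from marker lists. Bulge-like cells (1 cluster, with S100a4, Cd34 and Krt24 as its leading genes) numbered 266 aged and 337 young. Interfollicular basal-like cells, named from the joint level of Krt5, Krt14, Ly6a and Trp63 because none of the listed markers led their clusters, numbered 1974 aged and 1357 young. Different clusters held most of the basal-like class at each age (clusters 1 and 11 in the aged library, clusters 4 and 7 in the young one). With 1 library per age there is no test, and 95% intervals cover counting error only.

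Most Igfbp2 UMIs came from sebaceous-like cells, and Igfbp2 was among the 10 leading genes of that cluster, although it took no part in forming it. These 88 aged cells held 223 of the 258 Igfbp2 UMIs of the aged library (86.4%), and the 42 young cells held 126 of 137 (91.97%). Its level in them was 895 CPM (95% interval 782 to 1021) in the aged and 447 CPM (372 to 532) in the young library. A UMI was seen in 79.5% of aged and 78.6% of young sebaceous-like cells (median 2473 and 6645.5 UMIs), against 0.149% of aged suprabasal-like cells (median 3128 UMIs) and 0 of 480 young ones (median 5492.5 UMIs), which allows a share of up to 0.625% of cells with a UMI and sets no limit on cells that express the gene. In bulge-like cells it had 1 UMI in the aged and 0 in the young library. Barcodes with 10 to 100 UMIs, taken as free RNA, held 23.1 CPM in the aged and 5.12 CPM in the young library.

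Igfbp3, a leading gene of basal-like clusters 1 and 4, was spread over basal-like cells (296 CPM, 281 to 311, in aged and 314 CPM, 300 to 329, in young) and suprabasal-like cells (131 CPM in aged and 119 CPM in young). In bulge-like cells it had 22 UMIs or 52.5 CPM in the aged library and 168 UMIs or 186 CPM in the young one. Basal-like cells were above bulge-like cells at both ages, by a log2 ratio of 2.46 (95% interval 1.89 to 3.17) in aged and 0.75 (0.53 to 0.99) in young cells, the same direction as in the sorted populations. Free RNA was not small for this gene, at 218 CPM in the aged and 171 CPM in the young library.

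Igfbp4, Igfbp5, Igfbp6 and Igfbp7 were lower in basal-like than in bulge-like cells. In young cells the log2 ratio of basal-like over bulge-like cells was -5.26 (95% interval -5.83 to -4.75) for Igfbp4, -5.58 (-7.04 to -4.53) for Igfbp5, -7.76 (-13.67 to -5.79) for Igfbp6 and -2.08 (-2.27 to -1.89) for Igfbp7. In aged cells it was -4.61 (-5.24 to -4.02) for Igfbp4 and -6.36 (-8.93 to -4.84) for Igfbp6. For Igfbp5 the aged ratio of -1.23 rested on 17 and 3 UMIs and its interval of -2.84 to 1.36 includes 0, and for Igfbp7 the aged ratio was -0.47 (-0.74 to -0.17). In each age, 4 of the 8 genes (Igfbp3, Igfbp4, Igfbp5 and Igfbp6 in aged, Igfbp4, Igfbp5, Igfbp6 and Igfbp7 in young) were past 2-fold with at least 20 UMIs over the pair, where 23.5% of genes in aged and 21.7% of genes in young cells were.

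Outside these classes, Igfbp4 was also high in follicle junction-like cells, at 228 CPM in aged and 219 CPM in young, and in sebaceous-like cells, at 446 CPM in aged and 319 CPM in young. Igfbp6 had 57.3 CPM in aged and 55.4 CPM in young bulge-like cells and at most 7.61 CPM in the other named classes. Igfbp7 was carried by bulge-like, basal-like and proliferating-like cells and was at 0 UMIs in sebaceous-like cells, which allows up to 12.0 CPM in aged and 10.6 CPM in young.

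**Figure D3:**
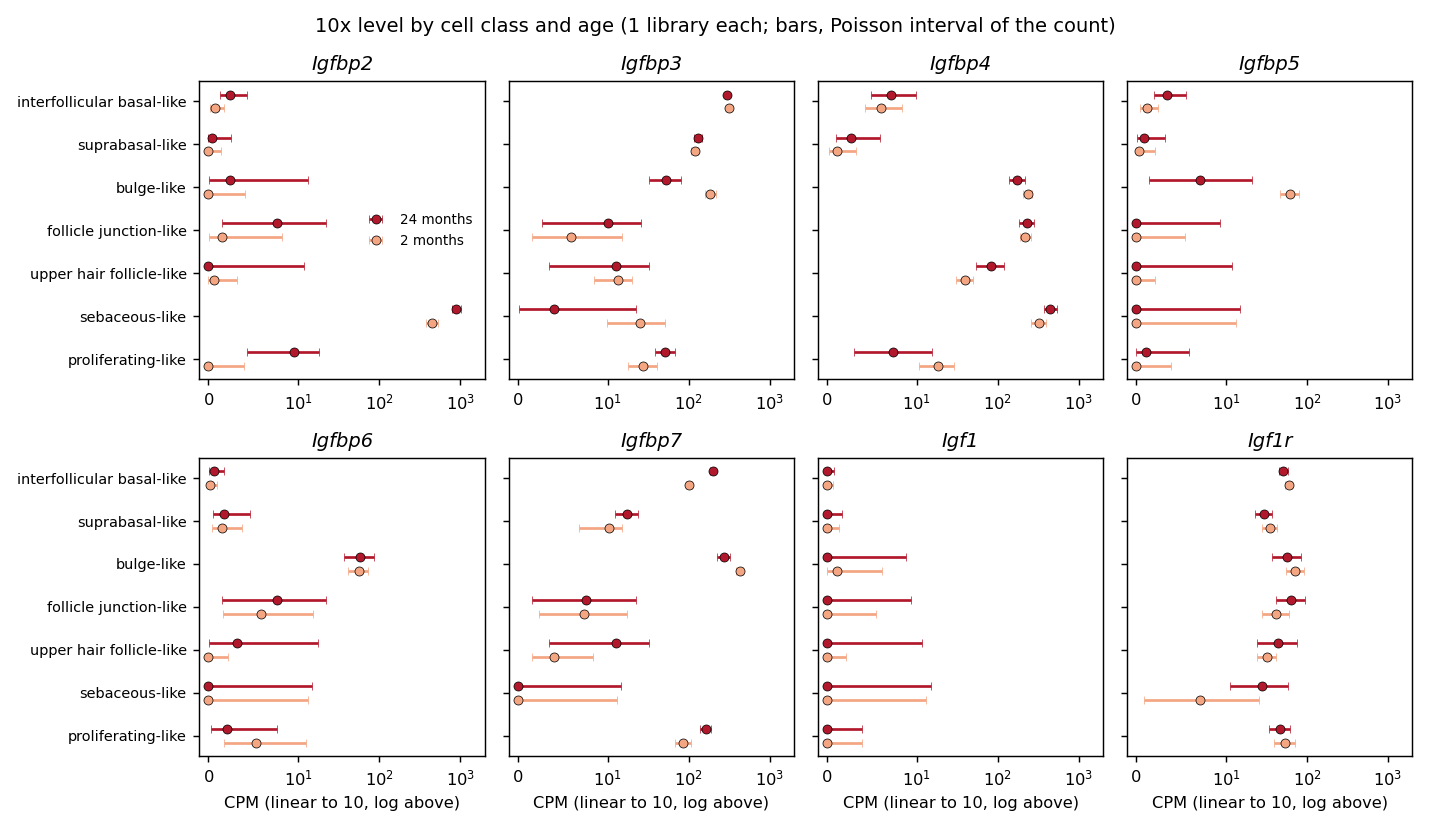
Level of each gene in 10x data by cell class and age, as CPM on an axis that is linear to 10 and logarithmic above, with points for the summed UMIs of 1 library per age and bars for the 95% Poisson interval. Igfbp2 peaks in sebaceous-like cells, Igfbp3 in interfollicular basal-like cells and Igfbp5 and Igfbp6 in bulge-like cells. For Igfbp5 the peak is clear in the young library only, since aged bulge-like cells held 3 UMIs.

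Between aged and young bulge-like cells, 2 of the 8 genes were past 2-fold, where 8.56% of genes were. Igfbp5 had 3 UMIs (7.16 CPM) in aged and 55 UMIs (61.0 CPM) in young bulge-like cells, a log2 ratio of -2.88 (95% interval -5.41 to -1.47). Igfbp3 had a log2 ratio of -1.80 (-2.54 to -1.18). Igfbp7 was at 272 CPM in aged and 431 CPM in young bulge-like cells (-0.66, -0.98 to -0.36), and Igfbp4 was at 174 CPM in aged and 233 CPM in young (-0.41, -0.82 to -0.03). The sorted HFSC gave the same sign for Igfbp3 and Igfbp5 and the opposite sign for Igfbp7. The bulge marker Cd34 was likewise at 241 CPM in aged and 576 CPM in young bulge-like cells, and the median depth was 1382 UMIs in aged and 2418 UMIs in young cells, and the part of these in the result was not tested.

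In basal-like cells Igfbp7 was higher in the aged library, at 197 CPM (95% interval 185 to 210) against 102 CPM (93.8 to 110) in the young one, a log2 ratio of 0.95 (0.81 to 1.10). It was higher in aged cells in each of the 4 basal-like clusters, for example at 186 CPM in aged and 103 CPM in young cells of cluster 4. That cluster held 181 aged and 915 young cells. The others were thin at 1 age, with 30 young cells in cluster 1, 23 young cells in cluster 11 and 53 aged cells in cluster 7. Thinned to 1000 UMIs per cell, 16.3% of aged and 8.84% of young basal-like cells had an Igfbp7 UMI, against 32.5% of aged and 25.4% of young cells unthinned. Free RNA held 123 CPM of Igfbp7 in the aged and 81.1 CPM in the young library, while suprabasal-like cells held 17.5 CPM in the aged and 10.3 CPM in the young library. Igfbp5 had 17 UMIs (3.45 CPM) in aged and 7 UMIs (1.20 CPM) in young basal-like cells, a log2 ratio of 1.46 (0.18 to 3.03). It was the 1 gene of the 8 past 2-fold there, where 5.73% of genes were, and it was not past 2-fold after thinning or in clusters 4 and 7 alone. Igfbp3 differed little (-0.09, -0.19 to 0.01).

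Igf1r was seen in every class, between 28.1 and 63.4 CPM in the aged and between 7.09 and 70.9 CPM in the young library, the lowest being 2 UMIs in young sebaceous-like cells. Its free RNA level was 40.5 CPM in the aged and 46.1 CPM in the young library, so that no class stood far above it. Igf1 had 0 UMIs in all aged cells, which allows up to 0.268 CPM, and 2 UMIs in all young cells. The second ligand, Igf2, had no UMI in either library.

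ATAC-seq counts were summed over the 500-base windows within 500 bases of each annotated start. Depth was uneven, with 22934060 counts for aged EpdSC, 8243922 for aged HFSC, 37325365 for young EpdSC and 26170665 for young HFSC, and the share at promoters was 10.1% in aged HFSC and 17.9 to 19.4% in the other libraries. The median log2 ratio over all promoters was 0.93 for aged EpdSC against aged HFSC and 0.05 for young EpdSC against young HFSC. With 1 library per group there is no test, 95% intervals cover counting error only, and each value is best read against that median.

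The Igfbp3 promoter was had higher counts in EpdSC, the population with the higher RNA level. It had 445 counts or 19.4 CPM in aged EpdSC and 28 counts or 3.40 CPM in aged HFSC, and 576 counts or 15.4 CPM in young EpdSC and 176 counts or 6.73 CPM in young HFSC. The log2 ratio was 2.49 (95% interval 1.96 to 3.12) in aged cells, or 1.56 above the median of all promoters, and 1.20 (0.95 to 1.45) in young cells, or 1.15 above it. In young cells it was the 1 gene of the 8 past 2-fold, where 18.4% of promoters were. In aged cells Igfbp3 and Igfbp6 were past 2-fold, where 49.7% of promoters were. In aged cells the Igfbp3 ratio exceeded that of 97.7% of promoters.

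Igfbp6 and Igfbp7 had lower promoter CPM in EpdSC than in HFSC, with intervals that exclude 0 in young cells and include it in aged cells. Igfbp6 had 0.785 CPM (18 counts) in aged EpdSC and 1.70 CPM (14 counts) in aged HFSC, and 0.884 CPM (33 counts) in young EpdSC and 1.76 CPM (46 counts) in young HFSC, with log2 ratios of -1.12 (95% interval -2.20 to 0.01) in aged and -0.99 (-1.68 to -0.31) in young cells. Igfbp7 had 7.15 CPM in aged EpdSC and 8.61 CPM in aged HFSC, and 6.27 CPM in young EpdSC and 12.1 CPM in young HFSC, with log2 ratios of -0.27 (-0.68 to 0.15) in aged and -0.95 (-1.20 to -0.70) in young cells. Relative to the median of all promoters, the ratio was -2.05 in aged and -1.035 in young cells for Igfbp6. For Igfbp7 it was -1.20 in aged and -0.999 in young cells. In aged cells the intervals of both genes lay below that median, which was 0.93.

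For Igfbp5 and Igfbp4, whose RNA levels were far apart, the promoter ratio had an interval that includes 0 in young cells and lay below the median of all promoters in aged cells. Igfbp5 had 2.79 CPM in aged EpdSC and 3.52 CPM in aged HFSC, and 2.28 CPM in young EpdSC and 2.71 CPM in young HFSC (log2 ratio -0.35, 95% interval -0.99 to 0.35, in aged cells and -0.25, -0.72 to 0.22, in young cells). Igfbp4 had 1.92 CPM in aged EpdSC and 3.52 CPM in aged HFSC, and 3.78 CPM in young EpdSC and 3.71 CPM in young HFSC (-0.88, -1.58 to -0.15, in aged cells and 0.03, -0.36 to 0.42, in young cells). Relative to the median of all promoters, the ratio was -1.27 in aged and -0.30 in young cells for Igfbp5, and -1.81 in aged and -0.025 in young cells for Igfbp4. Igf1r had a promoter among the most accessible, higher than 90.8 to 94.8% of 27026 promoters in the 4 libraries. The Igf1 promoter had 14 counts in aged EpdSC and 4 in aged HFSC, and 28 counts in young EpdSC and 15 in young HFSC.

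With age, no promoter of the 8 was past 2-fold in either population, where 5.45% of promoters were in EpdSC and 28.1% in HFSC. The median log2 ratio of aged over young cells over all promoters was 0.08 in EpdSC and -0.72 in HFSC. The Igfbp5 promoter ratio of aged over young cells was 0.30 (95% interval -0.20 to 0.78) in EpdSC and 0.39 (-0.30 to 1.02) in HFSC. Relative to those medians it was 0.21 in EpdSC and 1.11 in HFSC. The largest difference in EpdSC was at Igfbp4, with 44 counts in aged and 141 counts in young EpdSC (-0.97, -1.5002 to -0.48), or -1.05 relative to the median.

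**Figure D4:**
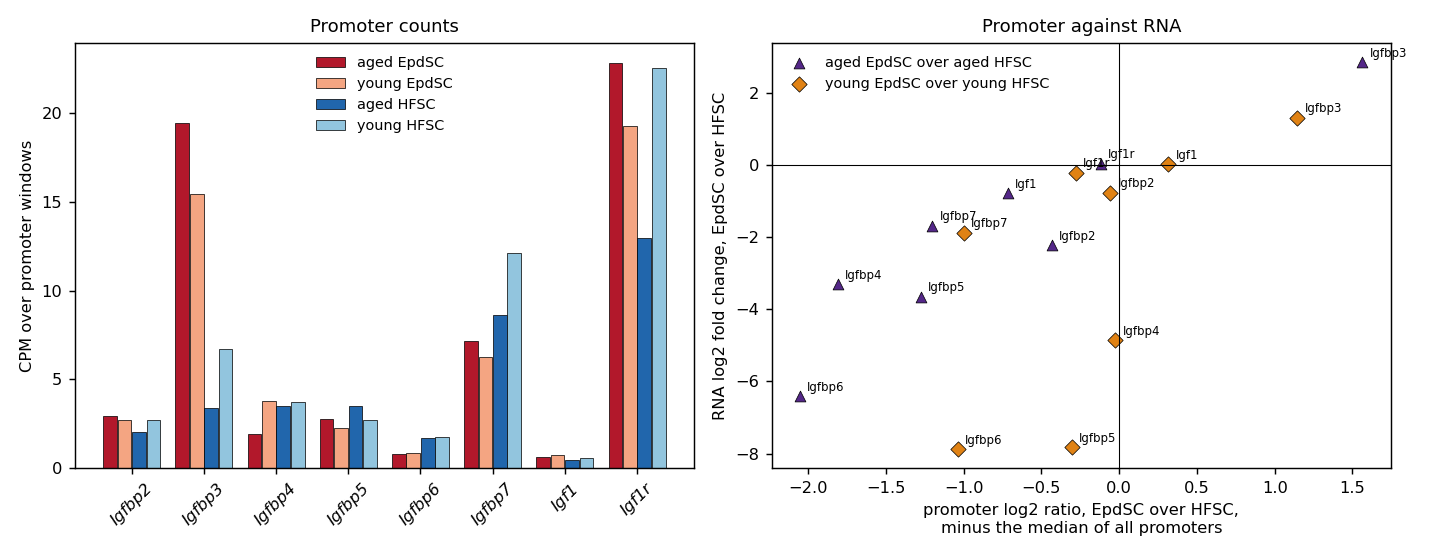
Left, ATAC-seq CPM over the promoter windows of the 8 genes in the 4 libraries. Right, the promoter log2 ratio of EpdSC over HFSC minus the median of all promoters against the RNA log2 fold change of EpdSC over HFSC, 1 point per gene and age. Igfbp3 lies to the upper right at both ages, while Igfbp5 in young cells has an RNA fold change of -7.82 at a promoter ratio of -0.30.

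Away from the promoters, a wide population difference lay upstream of Igfbp5. Igfbp2 and Igfbp5 are neighbours on chromosome 1, transcribed towards each other with 5590 bases between their 3′ ends. A stretch of 1000 bases at chr1:72885501-72886500 (mm10), centred at position -11135 from the Igfbp5 start and overlapping no annotated gene, held 3 counts in aged EpdSC and 53 in aged HFSC, and 5 counts in young EpdSC and 423 in young HFSC. In CPM this was 0.131 in aged EpdSC against 6.43 in aged HFSC and 0.134 in young EpdSC against 16.2 in young HFSC. The log2 ratio was -5.41 (95% interval -7.94 to -3.99) in aged and -6.78 (-8.55 to -5.68) in young cells. Past-4-fold windows were not rare: 4.07% of windows with 4 CPM in a library of the pair were lower by that much in aged EpdSC against aged HFSC, and 13.8% in young EpdSC against young HFSC.

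Further upstream, the window at chr1:72888001-72888500 went the other way, with 6.89 CPM in aged EpdSC and 3.28 CPM in aged HFSC, and 5.14 CPM in young EpdSC and 3.29 CPM in young HFSC. The upstream stretch was also lower in aged HFSC than in young HFSC (log2 ratio -1.32, 95% interval -1.77 to -0.92). The median in that pair was -0.72 over promoters, an unlike set of windows. Of windows at 4 CPM, 3 of 3 around Igfbp5 were lower in aged HFSC by 2-fold or more. So were 5 of 8 around Igfbp6, 5 of 10 around Igfbp4, 5 of 12 around Igf1r and 1 of 6 around Igfbp7. None of these windows was higher by that much, so the fall was not particular to the stretch. In EpdSC the age ratio of the stretch, 3 against 5 counts, was 0.05 with an interval of -2.72 to 2.33. The windows were found by scanning 50000 bases on each side of each gene, so they were chosen for their difference.

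Inside Igfbp7, a window at chr5:77366001-77366500, 41795 bases into the gene, had 1.53 CPM in young EpdSC and 7.99 CPM in young HFSC, a log2 ratio of -2.38 (95% interval -2.84 to -1.96). In aged cells it had 1.57 CPM in EpdSC and 3.28 CPM in HFSC. No window within 50000 bases of Igf1 reached 4 CPM in any library. At the other members, Igfbp6 had 4 of 8 such windows lower by more than 4-fold in young EpdSC than in young HFSC, where 13.8% of all such windows were, and the one with the lowest ratio lay at -44936 bases from its start and overlapped another gene, Tns2. Igf1r had 4 of 15 windows higher by more than 4-fold in aged EpdSC than in aged HFSC, a pair in which 26.0% of all such windows were.

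**Figure D5:**
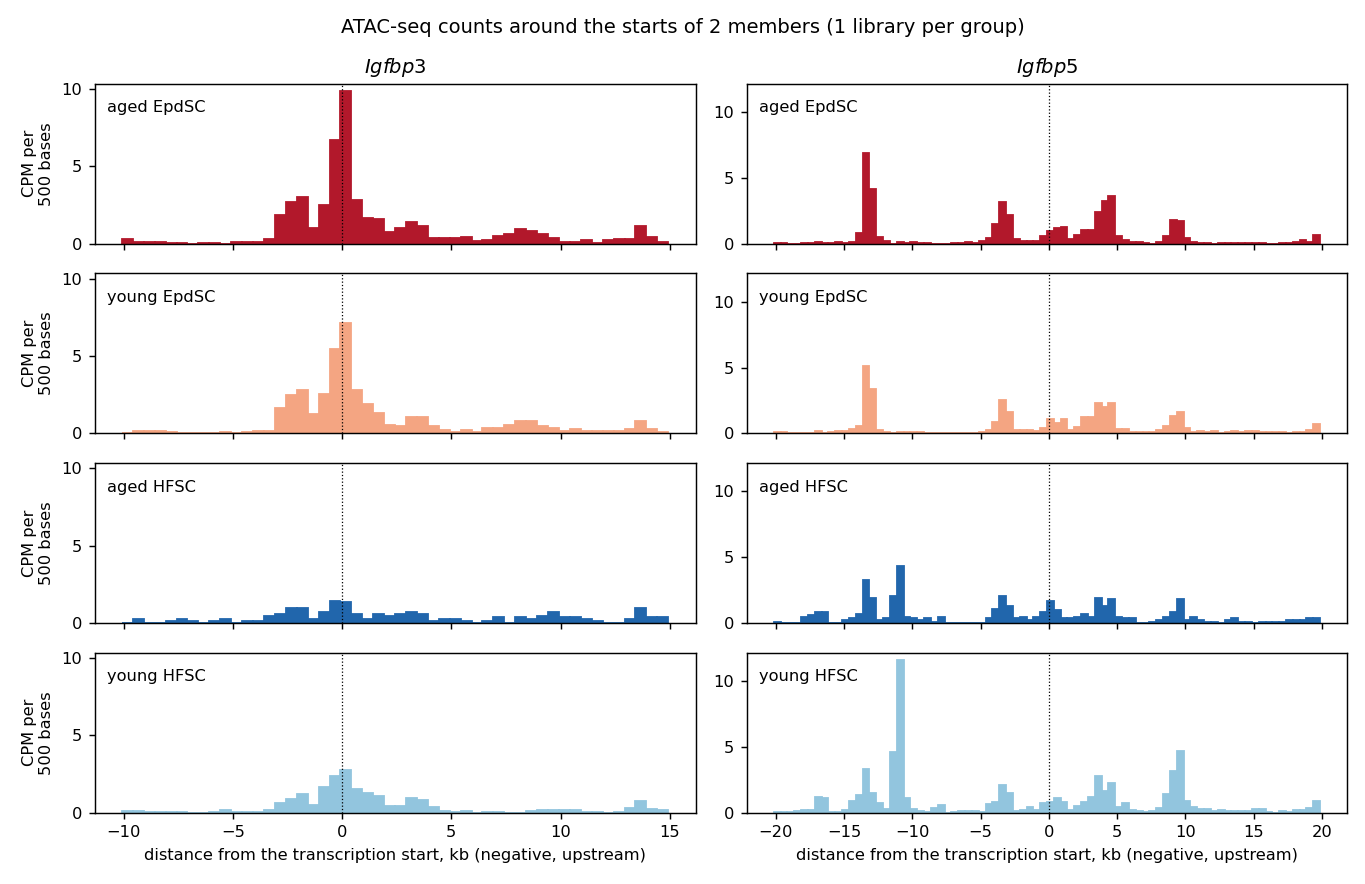
ATAC-seq CPM per 500 bases around the transcription starts of 2 of the 8 genes, 1 row per library, by distance from the start in kb. The peak upstream of Igfbp5 (centre -10885 bases) reaches 11.6 CPM per window in young HFSC and 4.37 CPM in aged HFSC and stays at or below 0.134 CPM in both EpdSC libraries.

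Of 66 other genes in fixed IGF pathway lists, 65 could be tested. In aged EpdSC against aged HFSC 19 passed the edgeR test, 8 higher and 11 lower (29.2%, where 24.1% of all genes did), and in young EpdSC against young HFSC 25 passed, 12 higher and 13 lower (38.5%, where 26.1% of all genes did). The aged count was 9 without aged EpdSC replicate 1 and 10 when aged HFSC replicate 1 was left out. Their median log2 fold change was 0.07 in aged and 0.01 in young cells. No test of the list as a whole was made.

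Among the proteases that act on binding proteins, Pappa, which cuts Igfbp4 and Igfbp5, was lower in EpdSC. It had 4.27 and 10.45 CPM in aged EpdSC and 90.2 and 69.9 CPM in aged HFSC (-3.45 ± 0.34 on the log2 scale, SE, adjusted p = 1.73e-05 by edgeR), and 5.74 and 5.72 CPM in young EpdSC and 58.1 and 76.8 CPM in young HFSC (-3.56 ± 0.34, adjusted p = 1.25e-05 by edgeR). Htra1, a secreted serine protease known to cut Igfbp5, was higher in EpdSC. It had 292 and 256 CPM in aged EpdSC and 83.6 and 183 CPM in aged HFSC (1.04 ± 0.27, adjusted p = 0.0152 by edgeR), and 271 and 283 CPM in young EpdSC and 50.7 and 50.5 CPM in young HFSC (2.45 ± 0.28, adjusted p = 5.22e-05 by edgeR). In the protease list, 2 of 8 genes passed at each age, 1 in each direction, where 24.1% of all genes passed in aged and 26.1% in young cells.

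Among receptors, Igf2r, which carries IGF2 to lysosomes, was lower in EpdSC with log2 fold changes of -1.17 ± 0.15 (SE, adjusted p = 0.000134 by edgeR) in aged and -1.54 ± 0.15 (adjusted p = 1.46e-05 by edgeR) in young cells. The insulin receptor gene Insr had 0.05 ± 0.16 in aged and -0.08 ± 0.16 in young cells and did not pass. The adaptor Grb14, which binds and restrains activated insulin receptors, was lower in EpdSC by log2 fold changes of -3.65 ± 0.34 in aged and -3.99 ± 0.34 in young cells (adjusted p by edgeR of 1.01e-05 in aged and 4.40e-06 in young). Downstream, Rheb, the GTPase that activates mTOR, was higher in EpdSC by 0.76 ± 0.15 in aged and 0.77 ± 0.15 in young cells, and the GTPase gene Hras by 0.64 ± 0.15 in aged and 0.80 ± 0.15 in young cells. The kinase genes Pik3cb (1.19 ± 0.21 in aged and 0.99 ± 0.20 in young) and Pdpk1 (0.59 ± 0.14 in aged and 0.58 ± 0.14 in young) were also higher in EpdSC and passed at both ages. Called genes of these lists were not all higher in EpdSC. In the PI3K-AKT list 2 of 16 genes passed as higher and 4 as lower in aged EpdSC, and 4 and 4 in young EpdSC. In the MAPK list 3 of 12 passed in each direction at each age. In the mTOR list 1 of 12 passed as higher and 0 as lower in aged EpdSC, and 3 and 1 in young EpdSC. Of all genes, 24.1% passed in aged and 26.1% in young cells, in either direction.

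With age, 1 of the 65 pathway genes passed in EpdSC (1.54%, where 0.0839% of all genes did) and 1 passed in HFSC (1.54%, where 0.368% of all genes did). In EpdSC none passed in the fit of the 4 libraries. In HFSC none passed in that fit or when the second library of either age was left out.

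For each of the 8 genes the 3 genes with the most similar RNA profile were taken by Pearson's r of log2 CPM over the 8 libraries, among genes with a mean of at least 5 CPM in some group. For Igfbp5 they were Selenbp1, Ubqln2 and Tll1 (r from 0.990 to 0.992), for Igfbp4 Ttpa, Smim14 and Wdpcp (0.994 to 0.997), for Igfbp6 Syde1, Exoc3l2 and Cdc42ep2 (0.997 to 0.998) and for Igfbp7 Crip1, Emp3 and Camkk2 (0.991 to 0.992). For Igfbp3 they were Armc5, Nfkbia and Get4 (0.986 to 0.993), for Igfbp2 Gjb2, Tspan4 and Aldh1l1 (0.958 to 0.976), for Igf1r Sntb2, Cul1 and Pias1 (0.958 to 0.976) and for Igf1 Dnajb9, Ppm1d and Flg2 (0.849 to 0.968). Among the 8 genes themselves, Igfbp4, Igfbp5, Igfbp6 and Igfbp7 had r of 0.934 to 0.972 with each other and Igfbp3 had r of -0.845 to -0.723 with them. The 8 libraries include both sorted populations, so r of genes that differ between the populations reflects that split. Igf1 and Igf1r, which did not, had r of -0.497 to 0.384 with the other genes of the 8. These values are a description and are given with no p.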

How the data were processed

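RNA-seq, ATAC-seq and 10x values are read, cut and UMI counts that the authors deposited, which were not normalised. The submitters' processing notes name STAR, Bowtie, Cell Ranger and the build mm10. Strand setting, annotation release, duplicate removal and any shift of transposase ends are, in the sources used here, not given.

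RNA counts were tested with edgeR 4.0.16 (R 4.3.3) by the quasi-likelihood test on 21464 genes after filterByExpr and TMM scaling, in 1 fit of the 8 libraries with group means, and p-values were adjusted by Benjamini-Hochberg over all genes. DESeq2 1.42.0 was an alternative. The common biological coefficient of variation was 0.277. Rows that name no gene were left out, and no sample column was unmatched (0). The tests were checked on simulated counts.

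ATAC counts were taken from the non-overlapping 500-base windows. Ratios used a pseudocount of 0.5, needed 20 counts over the pair and carry exact binomial 95% intervals. Windows around genes were kept at 4 CPM or more in a library of the pair.

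In 10x data, cells had at least 500 genes, at most 10% mitochondrial UMIs and at least the 99th percentile of UMIs over the 4000 deepest barcodes divided by 10. They were clustered at resolution 1 (leidenalg 0.10.2) on 2000 variable genes and 30 components without IGF genes. Marker lists were fixed, but the rule that names the basal-like class was set after seeing the data. Doublets were not called. Counts were summed per class, with Poisson or binomial 95% intervals that cover counting error only, and a count of 0 allows up to 3 counts.

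Libraries of the same replicate number were not paired: their deviations from the group means correlated between -0.213 and 0.174. The 8 genes, the pathway lists and the marker lists were chosen with earlier results of these data known. Genes named outside the 8 followed a fixed rule: up to 4 called pathway genes with the smallest p in each direction of each comparison, and the 3 most similar profiles. Insr, markers, leading genes of clusters and values in further comparisons were added after their values were seen. Some called pathway genes are counted but not reported here by name.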

Additional observations from a re-analysis of the deposited data

Results flagged for a closer look

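In 10x data the age ratio of Igfbp5 ran in opposite directions in 2 cell classes: the log2 ratio of aged over young cells was 1.46 in interfollicular basal-like cells and -2.88 in bulge-like cells, a difference of 4.34. It rests on 17 and 7 UMIs in aged and young basal-like cells and on 3 and 55 UMIs in aged and young bulge-like cells. Igfbp7 did the same, with 0.95 in interfollicular basal-like cells and -0.66 in bulge-like cells, a difference of 1.61. Each class had 1 library per age, so neither 10x difference was tested. The sorted cells did not show opposite directions for Igfbp7. Its log2 fold change with age was 0.50 ± 0.20 (SE) in EpdSC and 0.31 ± 0.19 in HFSC, and the difference of these age effects was 0.19 ± 0.27. Different clusters held most basal-like cells at each age, and Cd34 in bulge-like cells was at 241 CPM in aged and 576 CPM in young cells.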

How the results depend on the processing

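Most values kept their direction and their side of the threshold. Of 585 RNA fold changes of the 8 genes under alternatives, 539 did so, 23 gained and 9 lost a call and 14 turned sign. The 585 include fits that left out a library outside the comparison, which could hardly move the fold change, so the 539 overstate stability. Of 96 promoter ratios 14 moved beyond their counting interval, and of 115 10x ratios 6 did. The causes were not tested. With 2 libraries per group, and 1 in ATAC-seq and 10x, a lone library decides many of these values.

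Among the 8 genes, the number called between aged and young HFSC (0) was 3 with no filter on low counts, 1 with DESeq2 and 0 to 2 with a library left out. Between aged and young EpdSC (1) it was 2 with no filter, 0 with library size alone, with a filter of 1 CPM or in a fit of the 4 libraries, and 0 to 1 with a library left out. For the difference of the age effects (0) it was 3 with no filter, 1 with DESeq2 and 0 to 2 with a library left out. It was 4 to 5 for young EpdSC against young HFSC and 5 to 6 for aged EpdSC against aged HFSC with a library left out. Among 65 pathway genes, the number called between aged and young HFSC (1) was 5 with no filter, 2 with DESeq2, 0 in the fit of the 4 libraries and 0 to 2 with a library left out. Between aged and young EpdSC (1) it was 4 with no filter, 0 in the fit of the 4 libraries and 1 to 2 with a library left out. In aged EpdSC against aged HFSC (19) it ran from 9 (without aged EpdSC replicate 1) to 22 with a library left out, and was 10 without aged HFSC replicate 1. For the difference of the age effects (0) it was 3 with no filter, 2 with DESeq2 and 0 to 1 with a library left out.

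Signs turned mainly for genes with values near 0. The Igf1r log2 fold change in EpdSC against HFSC in aged cells was -0.067 with library size alone, -0.015 with a filter of 1 CPM and -0.15 to 0.32 with a library left out, and -0.44 to 0.030 in young cells. In aged against young EpdSC it was -0.29 to 0.12. Igf1 in young EpdSC against young HFSC was -0.023 with library size alone and -3.46 to 0.97 with a library left out, and -1.42 to 0.59 in aged cells. For the difference of the age effects, with a library left out, Igfbp7 ran from -0.031 to 0.47 and Igf1 from -1.73 to 2.72.

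A replicate block changed 1 call among the 8 genes: Igfbp2 in aged against young HFSC had a log2 fold change of 2.65 and an adjusted p of 0.0391 by edgeR, so the number called there was 1. The libraries share only a number, so this is no paired result.

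The number of promoters past 2-fold was 1 in aged against young HFSC (0) within 1000 bases of the start and when scaled by promoter counts. In aged against young EpdSC (0) it was 1 in offset windows and when scaled by promoter counts. In aged EpdSC against aged HFSC (2) it was 1 within 1000 bases and in offset windows and 5 when scaled by promoter counts. In 10x, the number past 2-fold in aged against young interfollicular basal-like cells (1) was 0 after thinning and 0 in the clusters with 50 cells of each age, an alternative chosen after seeing the data. In aged basal-like against aged bulge-like cells (4) it was 2 after thinning.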
